A study of Rattus norvegicus with 32 samples.

Results

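The genes described here are 8 transcripts of the integrated stress response, which were measured in rat liver after inhalation of ozone: Atf4, Atf3, Ddit3, Ppp1r15a, Trib3, Sesn2, Asns and Psat1. They were chosen by symbol, as the probe sets that the array's annotation assigns to these genes alone. All 8 were on the array, among 13437 genes measured by probe sets of a single gene, and all 8 passed the filter on low values that left 10886 genes for testing. Together they had 11 probe sets, and the brightest stood for its gene.

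The integrated stress response slows general protein synthesis when kinases that sense amino acid shortage, misfolded protein, viral RNA or heme deficit phosphorylate the initiation factor eIF2. Translation of the transcription factor ATF4 rises at the same time, and ATF4 then switches on genes for amino acid synthesis, transport and tRNA charging as well as genes that end the response or lead to cell death. Because ATF4 is controlled largely at the level of its translation, its mRNA is a poor measure of its activity, and its target genes are the usual readout in liver.

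The rats were male Wistar Kyoto animals, 10 weeks old and weighing 250 to 300 g. They breathed filtered air or ozone at 1 ppm for 6 h per day. Livers taken as the first day's exposure ended gave 6 air and 6 ozone arrays. Those taken as the second day's exposure ended gave 5 and 5, and so did those taken 18 h later, and every harvest time had its own air controls. The labels do not state that each of the 32 arrays held a different animal, so p-values measure the spread between these samples, and the number of arrays limits their precision.

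The array medians lay between 147 and 161 intensity units, and pairs of arrays correlated between 0.964 and 0.997. The ratio of 3' to 5' signal of beta-actin, a measure of RNA integrity, ranged from 2.16 to 3.50. The highest was 18 h ozone replicate 5, which also had the highest such ratio for GAPDH (1.53, in a range from 1.18). The same array was the brightest for Psat1 and Trib3, and whether RNA integrity has a part in this was not tested. Probes for nonspecific binding had array medians of 54.3 to 92.0, so background signal remains in the values. The 5 hepatocyte markers tested summed to 40210 to 44590 units per array, and 0 of them passed the threshold in any ozone and air comparison. Of 45 tested markers of liver and other cell types, 5 were lower and 0 higher with ozone on day 1. Over all genes tested, 17.5% were lower and 13.9% higher then. The 5 were Lyz2 (macrophages), Epcam (bile duct cells), Lrat (stellate cells), Stab2 (sinusoidal endothelium) and Cela1 (listed for pancreas). On day 2 Lyz2 was lower, and at 18 h Stab2 was higher by 0.28 (limma, adjusted p = 0.0313) and Cela1 lower, at -0.41 (adjusted p = 0.0165). Of all genes tested, 0.753% passed in either direction on day 2 and 1.37% at 18 h. The 8 Kupffer cell and macrophage markers tested summed to 3934 to 5157 after ozone at 18 h against 5217 to 6051 after air, although 0 of 8 passed at that time. The sums overlapped on day 1 (4443 to 7266 after ozone, 5907 to 7158 after air) and on day 2 (3536 to 5026 and 4123 to 7133). Whether these differences have a part in the results below was not tested. A total of 7 arrays resembled another group's mean more than their own over the genes tested, and 2 of them correlated below -0.2 with the rest of their own group, namely day 2 air replicate 5 (r = -0.527) and day 2 ozone replicate 5 (r = -0.251).

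The proximal promoters of 7 of the 8 genes were found in RefSeq sequence of the rat assembly GRCr8; that of Atf3 was not used here. The 250 bases before the transcription start were searched on both strands for 3 motifs of stress response factors: the cyclic AMP response element TGACGTCA, which ATF and CREB factors bind, the AP-1 element TGACTCA, which JUN and FOS dimers bind, and TGATGNAA, the core of the composite element that ATF4 binds with C/EBP partners. Each motif had 1 match among the 7 promoters, and the 3 matched promoters are shown. Whether a match relates to the expression values below was not tested. TGACGTCA lay in the promoter of Ppp1r15a, beginning 66 bases upstream of the start, and in 1.59% of all 33469 rat promoters. TGACTCA began 241 bases upstream of Ddit3 and was found in 4.05% of promoters. TGATGNAA was matched on the opposite strand of the Trib3 promoter, 21 bases upstream, and was found in 3.4%. The sequences run from 5' to 3' on the strand of the gene, with the match in capitals, at chr1:105139597-105139846 (minus strand), chr7:65001445-65001694 (plus strand) and chr3:161275534-161275783 (minus strand).
Ppp1r15a: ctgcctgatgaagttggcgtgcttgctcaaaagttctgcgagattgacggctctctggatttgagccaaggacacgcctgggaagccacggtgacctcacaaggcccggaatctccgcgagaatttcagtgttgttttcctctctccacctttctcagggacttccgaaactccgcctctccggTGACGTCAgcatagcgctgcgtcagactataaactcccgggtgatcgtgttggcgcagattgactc
Ddit3: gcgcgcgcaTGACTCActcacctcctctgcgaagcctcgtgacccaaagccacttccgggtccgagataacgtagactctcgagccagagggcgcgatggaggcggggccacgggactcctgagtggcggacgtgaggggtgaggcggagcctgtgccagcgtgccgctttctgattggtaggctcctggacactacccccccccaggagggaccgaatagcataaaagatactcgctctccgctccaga
Trib3: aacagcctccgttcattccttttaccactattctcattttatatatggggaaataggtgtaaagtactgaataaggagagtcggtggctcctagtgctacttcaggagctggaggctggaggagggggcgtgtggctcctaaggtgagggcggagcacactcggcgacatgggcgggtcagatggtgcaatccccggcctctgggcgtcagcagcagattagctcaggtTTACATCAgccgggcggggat
A match is a description of these letters and does not show that a factor binds there.

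Ozone and air livers were compared at each time to ask whether inhaled ozone moved these genes in the liver. None of the 8 genes passed the threshold at any of the 3 times, with limma's test and Benjamini-Hochberg adjustment over all 10886 genes (adjusted p under 0.05). At the end of day 1, 0 of 8 passed, 2 had an unadjusted p under 0.05, and 31.4% of all genes tested passed. Their median log2 difference (ozone minus air) was -0.11, against 0.00 for all genes, and 5 of 8 differences were below 0. By the end of day 2, 0 of 8 passed and 1 had an unadjusted p under 0.05, with 0.753% of all genes past the threshold and a member median of 0.08. At 18 h, 0 of 8 passed and 2 had an unadjusted p under 0.05, with 1.37% of all genes past the threshold. Limma's unadjusted p was under 0.05 for 4383 of all 10886 genes on day 1, 1498 on day 2 and 1386 at 18 h. All 8 differences at 18 h lay above 0, with a median of 0.12 against 0.01 for all genes. The smallest, 0.03 each for Trib3 and Ppp1r15a, fell to -0.03 and -0.13 without a single ozone array. The other Trib3 probe sets lay below 0 as well. The share of all genes above 0 was not counted. Log2 differences are on the scale of log2(intensity + 16), which understates changes of dim genes. In a whole-tissue sample, fewer cells of a type and less RNA per cell cannot be told apart.

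**Figure D1:**
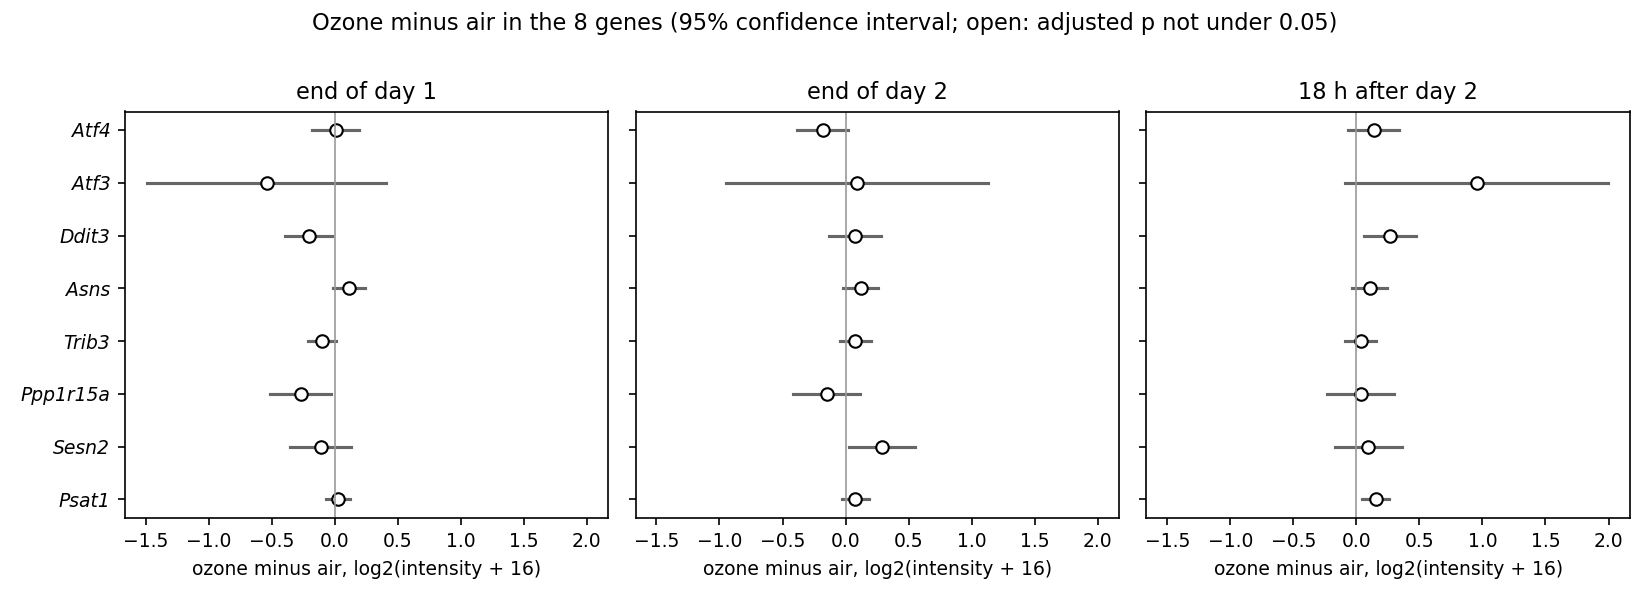
Ozone minus air in each of the 8 genes at the 3 harvest times, as the difference of mean log2(intensity + 16) with its 95% confidence interval. All points are open, since no adjusted p was under 0.05. The intervals of Atf3 are the widest of the 8.

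The size of difference that the arrays could resolve varied between the genes. The interval around an ozone and air difference reached 0.10 to 0.11 log2 units to each side for Psat1, 0.19 to 0.20 for Atf4 and Ddit3, and 0.95 to 1.04 for Atf3. Of 10886 genes, Atf3 lay in the 100th percentile of the spread within groups and Psat1 in the 55th. Atf4 was brighter than every nonspecific-binding probe on all 32 arrays. Sesn2 was brighter than all of them on 17 arrays, Trib3 on 6, Atf3 and Ddit3 on 4 each, Ppp1r15a on 2, and Asns and Psat1 on 0. All 8 genes exceeded the median of those probes on every array.

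Atf4, the transcription factor at the centre of the response, had its intensity between 1259 and 1557 on day 1 after air (median 1541) and between 1252 and 1775 after ozone (median 1518). On day 2 the 5 air arrays read 1563, 1604, 1640, 1402 and 1332, and the 5 ozone arrays 1314, 1255, 1376, 1152 and 1558. At 18 h the air arrays read 1475, 1879, 1275, 1238 and 1453, and the ozone arrays 1409, 1574, 1698, 1506 and 1815. The groups overlapped at every time, and on day 2, 3 of 5 ozone arrays lay below every air array. Atf4 differed between ozone and air by 0.01 ± 0.09 (log2, SE) on day 1, -0.18 ± 0.10 on day 2 and 0.14 ± 0.10 at 18 h (limma, adjusted p = 0.961, 0.45 and 0.635).

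**Figure D2:**
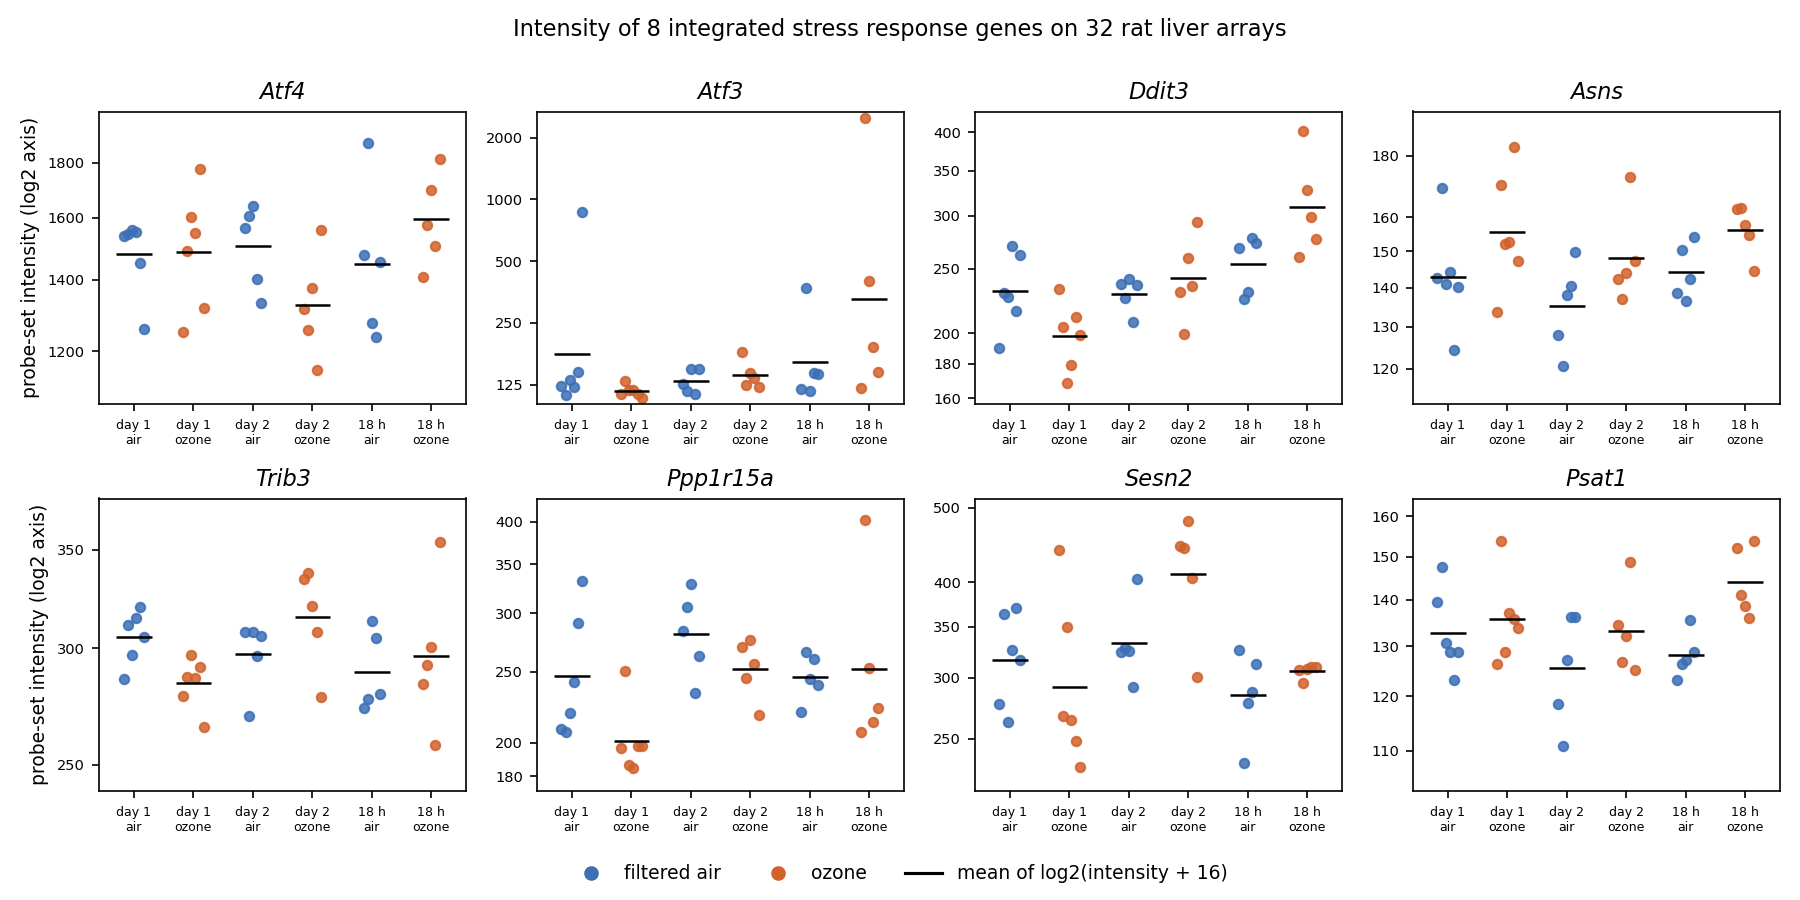
Probe-set intensity (log2 axis, its range set for each gene) of the 8 genes on every array, by harvest time and exposure. Points are arrays (6, 6, 5, 5, 5 and 5 per group) and bars are means of log2(intensity + 16). The Atf3 panel has a point at 2502 in the 18 h ozone group and one at 867 in the day 1 air group, while most of its other points lie near 130.

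Ddit3 encodes the transcription factor CHOP, which promotes cell death under lasting stress. Its ozone effect changed past the threshold between day 1 and 18 h, as did that of 22.1% of all genes tested. On day 1 its intensity was 190 to 270 after air (median 228) and 169 to 233 after ozone (median 202). At 18 h the air arrays read 268, 226, 230, 278 and 274, and the ozone arrays 261, 402, 328, 299 and 277. Values after ozone thus leaned below air on day 1, where 2 of 6 ozone arrays lay below every air array, and above air at 18 h, where 3 of 5 lay above every air array, with overlap both times. The difference between ozone and air was -0.21 ± 0.09 on day 1 (limma, adjusted p = 0.0892), 0.07 ± 0.10 on day 2 (adjusted p = 0.894) and 0.27 ± 0.10 at 18 h (adjusted p = 0.203). The day 1 difference gained a call without air replicate 1 (-0.26, adjusted p = 0.0331), the lowest adjusted p, or without ozone replicate 1, and that at 18 h was 0.18 without ozone replicate 2. The change of the ozone effect from day 1 to 18 h was 0.47 ± 0.14 (95% interval 0.20 to 0.75, adjusted p = 0.0112), and Ddit3 was the 1 of 8 members past the threshold in that test, with 22.1% of all genes past it and 13.4% higher. Leaving out each array in turn gave 0.39 to 0.53, all past the threshold (adjusted p up to 0.0294). The changes of effect from day 1 to day 2 and from day 2 to 18 h passed for 0 of 8 genes (5.54% and 0.00919% of all genes passed). Limma's unadjusted p was under 0.05 for 3 and 1 of the 8, and for 2273 and 986 of all 10886 genes.

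Among ozone arrays alone, Ddit3 was higher at 18 h than on day 2, when the 5 arrays read 231, 199, 260, 235 and 294. The difference was 0.34 ± 0.10 (limma, adjusted p = 0.0261), and 3 of 5 arrays at 18 h lay above every day 2 array. That call was lost without day 2 ozone replicate 1, 2 or 4, or without 18 h ozone replicate 2 or 3 (log2 difference 0.25 to 0.33, adjusted p 0.0619 to 0.102), and in a fit of only the groups compared (adjusted p = 0.0768). Over all 10886 genes, 12.2% passed in that comparison (7.66% higher and 4.57% lower), and 2 of the 8 members did, Ddit3 and Sesn2, in opposite directions. Between air arrays, 0 of 8 genes passed from day 1 to day 2 (0.00919% of all genes) or from day 2 to 18 h (0.129%). Limma's unadjusted p was under 0.05 for 0 of the 8 both times, against 734 and 1076 of all 10886 genes. For Ddit3 the air difference from day 2 to 18 h was 0.14 ± 0.10 (adjusted p = 0.72).

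Sesn2, a stress-induced inhibitor of mTORC1 signalling, was high on the day 2 ozone arrays. These read 445, 443, 480, 405 and 301, against 324, 328, 325, 292 and 403 on the day 2 air arrays. A total of 4 of 5 ozone arrays exceeded every air array there, and the fifth, replicate 5, lay within the air range. The difference on day 2 was 0.29 ± 0.13 (limma, adjusted p = 0.3). It was 0.46 (adjusted p = 0.0145) without day 2 air replicate 5, day 2 ozone replicate 5 and 18 h air replicate 5, which had been seen to resemble other groups; leaving such arrays out widens gaps between groups by itself. On day 1, Sesn2 ranged from 263 to 370 after air (median 321) and from 230 to 440 after ozone (median 266), with a difference of -0.11 ± 0.12 (adjusted p = 0.513). At 18 h the air arrays read 326, 232, 278, 287 and 312 and the ozone arrays 308, 296, 308, 310 and 310, which is the tightest of the 6 groups. Those ozone values lay inside the air range, with a difference of 0.10 ± 0.13 (adjusted p = 0.85).

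Within the ozone arrays, Sesn2 was higher on day 2 than on day 1 by 0.47 ± 0.12 (limma, adjusted p = 0.00965), where 3 of 5 day 2 arrays exceeded every day 1 array. It was the 1 of 8 genes to pass in that comparison, which 15.6% of all genes passed and 9.14% passed as higher. At 18 h it was lower than on day 2 by 0.40 ± 0.13 (adjusted p = 0.0377), and 4 of 5 day 2 arrays lay above every 18 h array. The later call was lost without any single one of day 2 ozone replicates 1 to 4 and 18 h ozone replicates 1 to 5 (log2 difference between -0.41 and -0.35, adjusted p 0.0604 to 0.126). The earlier one was lost in a fit of only the groups compared (adjusted p = 0.0587), and kept without any single array. Both comparisons use the same day 2 ozone arrays. Between air arrays, Sesn2 differed by 0.07 ± 0.12 from day 1 to day 2 (limma, adjusted p = 0.925). From day 2 to 18 h the air difference was -0.21 ± 0.13 (adjusted p = 0.645), and 3 of 5 air arrays at 18 h lay below every day 2 air array. The ozone effect itself was not shown to differ between times, since its change was 0.40 ± 0.18 from day 1 to day 2 (adjusted p = 0.181) and -0.19 ± 0.18 from day 2 to 18 h (adjusted p = 0.844). The other probe set of Sesn2, which lay below the filter at 110 to 135 units, showed a day 2 minus day 1 ozone difference of 0.04 ± 0.03 (adjusted p = 0.511).

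Atf3, a transcription factor of the ATF and CREB family that ATF4 and other stress pathways induce, stayed near 130 units on most arrays and was high on a few. On day 1 its intensity was 112 to 867 after air (median 127) and 108 to 130 after ozone (median 115). On day 2 the air arrays read 127, 116, 150, 113 and 149, and the ozone arrays 180, 124, 143, 135 and 122. At 18 h the air arrays read 119, 371, 116, 143 and 142, and the ozone arrays 120, 2502, 398, 191 and 144. The highest arrays were thus 18 h ozone replicate 2, day 1 air replicate 6, 18 h ozone replicate 3 and 18 h air replicate 2, so that high values occurred after air as well as after ozone. The ozone and air difference was -0.54 ± 0.47 on day 1, 0.09 ± 0.51 on day 2 and 0.95 ± 0.51 at 18 h (limma, adjusted p = 0.412, 0.987 and 0.452). It was 0.23 at 18 h without ozone replicate 2 and -0.10 on day 1 without air replicate 6.

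Ppp1r15a, which brings a phosphatase to eIF2 and so ends the response, was 207 to 333 on day 1 after air (median 231) and 185 to 251 after ozone (median 197). On that day 5 of 6 ozone arrays lay below every air array, and ozone replicate 2, at 251, lay inside the air range. The difference was -0.27 ± 0.12 (limma, adjusted p = 0.0831); it was -0.33 without ozone replicate 2 and -0.19 without air replicate 6, and the call at 0.05 was gained without ozone replicate 2 or 18 h ozone replicate 2 (lowest adjusted p = 0.0264). On day 2 the air arrays read 284, 306, 329, 234 and 262 and the ozone arrays 270, 245, 276, 256 and 218. At 18 h the air arrays read 220, 266, 244, 260 and 239 and the ozone arrays 207, 402, 253, 214 and 223. The groups overlapped on day 2 and at 18 h, when the ozone group held both the lowest and the highest value. The differences were -0.15 ± 0.13 and 0.03 ± 0.13 (adjusted p = 0.735 and 0.957), and the latter was -0.13 without ozone replicate 2.

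Trib3, a pseudokinase induced by ATF4 and CHOP that restrains both ATF4 and insulin signalling, ranged from 258 to 354 over the 32 arrays. Its differences between ozone and air were -0.10 ± 0.05, 0.08 ± 0.06 and 0.03 ± 0.06 at the 3 times (limma, adjusted p = 0.164, 0.646 and 0.896). Its 3 probe sets did not give the same call on day 1. The second brightest read 177 to 247 after air and 149 to 210 after ozone, a difference of -0.27 ± 0.08 (adjusted p = 0.0103 over all 19062 probe sets of a single gene), and the dimmest gave -0.16 ± 0.08 (adjusted p = 0.176). All 3 lay below 0 on day 1, and at 18 h both dimmer sets were below 0 (-0.07 and -0.05) while the brightest was above it.

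Psat1 and Asns encode enzymes that make serine and asparagine. At 18 h Psat1 was the 1 gene of the 8 whose ozone and air groups did not overlap, as for 2.88% of all genes tested at that time; on days 1 and 2 its groups overlapped, and 0 of 8 genes had groups apart, against 16.9% and 1.56% of all genes. Its 18 h air arrays read 123, 126, 127, 136 and 129 and the ozone arrays 152, 141, 139, 136 and 154. All 5 ozone arrays lay above the highest air array. The difference was 0.15 ± 0.05 and did not pass the threshold (limma, adjusted p = 0.144), which 1.37% of all genes passed. The gap between the lowest ozone and the highest air array, both 136 after rounding, was under 1 unit. On day 1 Psat1 differed by 0.03 ± 0.05 and on day 2 by 0.08 ± 0.05 (adjusted p = 0.704 and 0.591), and all its values, 111 to 154, lay below the brightest nonspecific-binding probe of their array. Asns ranged from 121 to 183, and its ozone minus air difference was 0.11 ± 0.06, 0.12 ± 0.07 and 0.11 ± 0.07 at the 3 times, with overlap each time and no call (limma, adjusted p = 0.176, 0.458 and 0.563). On day 1 the difference was 0.07 without ozone replicate 5, and without air replicate 2 it was 0.16 and gained a call (adjusted p = 0.0467). On day 2 it was 0.07 without ozone replicate 4. At 18 h, 4 of 5 ozone arrays lay above every air array for Asns.

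The 8 genes did not vary as a block from array to array. After removal of the group means, 2 of 28 pairs passed a permutation test with 100000 resamples and Benjamini-Hochberg adjustment over the 28 pairs. Atf3 and Ppp1r15a correlated with r = 0.813 and rho = 0.699 (32 arrays, permutation p = 1e-05, the smallest the resamples can give, and 6e-05, adjusted p = 0.00028 and 0.00168), and r was 0.583 without the 2 arrays farthest from the median of Atf3. Asns and Psat1 correlated with r = 0.678 and rho = 0.594 (permutation p = 0.00036 and 0.00144, adjusted p = 0.00504 and 0.0202), and r was 0.694 without 2 such arrays. Both genes lay below the brightest nonspecific-binding probe on all 32 arrays, and whether shared background signal has a part was not tested. Ddit3 and Atf3 had r = 0.477 and rho = 0.304 and did not pass (permutation p = 0.0396 and 0.114, adjusted p = 0.222 and 0.637), and r was 0.181 without the 2 farthest arrays. Nor did Ddit3 and Ppp1r15a (r = 0.479, rho = 0.381, permutation p = 0.0267 and 0.0478, adjusted p = 0.222 and 0.335). Trib3 and Sesn2 did not pass either (r = 0.317, rho = 0.385, permutation p = 0.0377 and 0.032, adjusted p = 0.222 and 0.299). Without the 2 arrays farthest from the median of Ddit3 and of Trib3, r was 0.422 and 0.412. The mRNA of Atf4 correlated with its target genes between -0.385 for Sesn2 and 0.136 for Asns, and no such pair passed (adjusted p 0.265 or above).

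**Figure D3:**
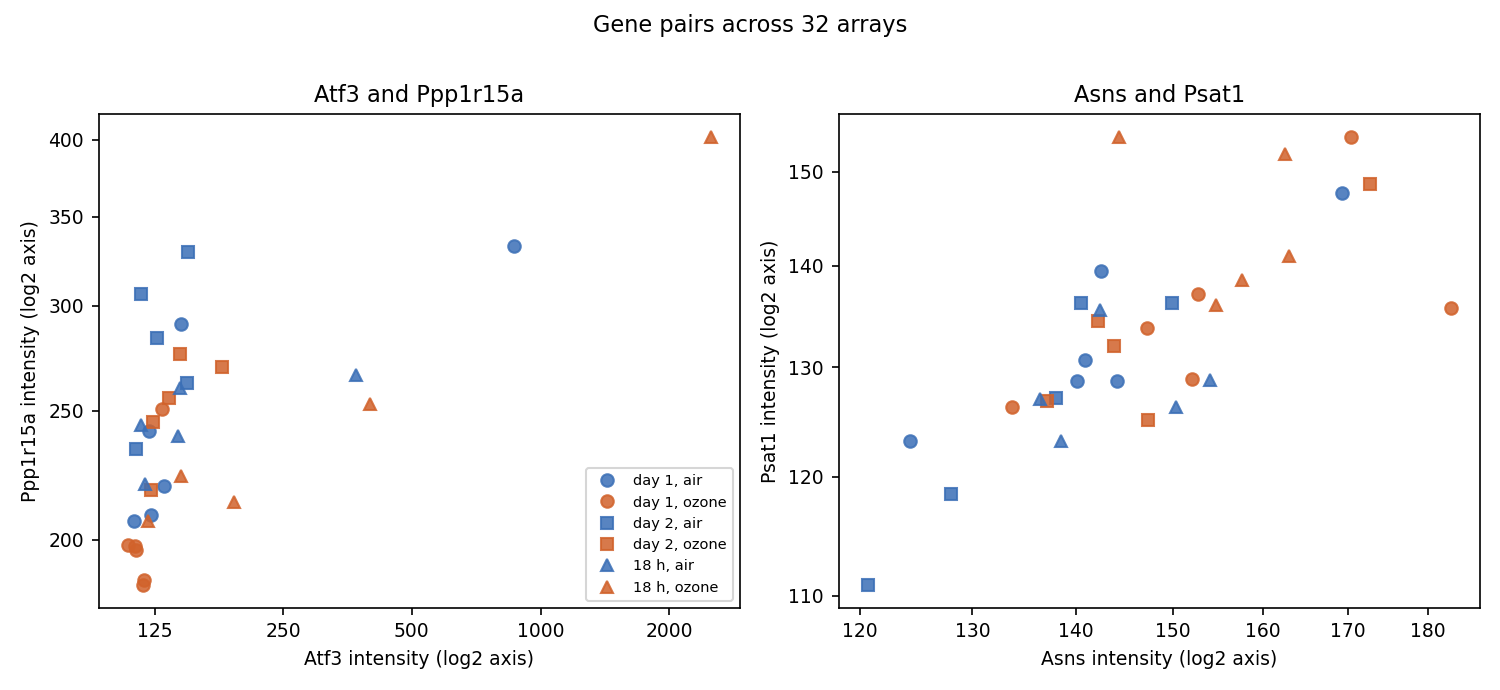
Intensities of Atf3 against Ppp1r15a and of Asns against Psat1 on 32 arrays (log2 axes), by harvest time (shape) and exposure (colour). In the left panel an 18 h ozone array (2502 and 402 units) and a day 1 air array (867 and 333 units) lie apart from the rest; in the right panel arrays of all groups lie along one band.

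The genes most like each member over the 32 arrays are given as a description, which includes differences between groups. Atf3 was closest to Ccn1, which encodes a matrix protein induced by growth factors (r = 0.879), and to Klf6 (r = 0.851), and Ppp1r15a to Jun, an AP-1 subunit (r = 0.765), and Ccn1 (r = 0.756). On 18 h ozone replicate 2, Jun read 3683, 5.91 times its median over all arrays, Atf3 was 19.5 times and Ppp1r15a 1.66 times its own median. On day 1 air replicate 6, Jun was 3.45 times, Atf3 6.75 times and Ppp1r15a 1.37 times the median. Jun, Atf3 and Ppp1r15a were thus each highest and second highest on the same 2 arrays, 1 after ozone and 1 after air. Atf4 stood at 1.05 and 0.841 times its median there, and Asns at 1.13 and 0.971 times. Klf6 was highest on the ozone array and ranked 3 on the air array. The arrays next highest for Atf3 were 18 h ozone replicate 3 and 18 h air replicate 2 (3.10 and 2.89 times its median). Jun was 3.42 and 3.24 times its median on them, but Ppp1r15a only 1.04 and 1.095 times. Psat1 and Asns were each other's closest gene (r = 0.739), followed by Phgdh, the first enzyme of serine synthesis (r = 0.678 with Asns and 0.586 with Psat1). Phgdh was dim like them, at 126 to 169 units. Sesn2 was closest to Noct, a gene under control of the circadian clock (r = 0.73), and to Klf15, a glucocorticoid-induced factor (r = 0.71). Ddit3 was closest to Ubqln4 (r = 0.867) and Pskh1 (r = 0.859), Atf4 to Rnf217 (r = 0.748) and C19h1orf198 (r = 0.735), and Trib3 to Cds2 (r = 0.575) and Ihh (r = 0.573).

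Other genes of the response were taken from 6 lists by role with 60 entries, of which 55 were on the array and 53 were tested. On day 1, 11 of 53 were higher and 10 lower after ozone, or 39.6% against 31.4% of all genes (13.9% higher and 17.5% lower), with a median log2 difference of -0.03. The list of sensing and eIF2 control held changes in both directions, with 4 of 12 higher and 3 lower. Eif2b2, a subunit of the exchange factor that recharges eIF2, rose by 0.56 ± 0.07 (limma, adjusted p = 5.69e-07). Ppp1r15b, the constitutive partner of the eIF2 phosphatase, fell by 0.45 ± 0.08 (adjusted p = 4.1e-05). Eif2ak3, the kinase PERK of the endoplasmic reticulum, was also among the lower genes. Among 5 partner and related transcription factors, 1 passed: Nupr1, a stress-induced chromatin protein, rose by 0.53 ± 0.12 (adjusted p = 0.000751).

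Amino acid transport had 2 of 6 genes higher and 2 lower on day 1. Slc1a4, a carrier of alanine and serine, rose by 0.63 ± 0.11 (limma, adjusted p = 2.62e-05), with no overlap between ozone and air arrays. Genes of tRNA charging were split likewise, with 3 of 13 higher and 3 lower; Tars1, the threonyl-tRNA synthetase, fell by 0.36 ± 0.12 (adjusted p = 0.0184; 0.051 without ozone replicate 6). Amino acid synthesis had 1 of 7 higher, Gpt2, and 1 lower, Cth. Of 10 other stress outputs, 1 was lower, the growth factor gene Vegfa (-0.30 ± 0.11, adjusted p = 0.044). That call was lost without air replicate 2, 3, 4 or 5 or ozone replicate 1, 2, 3 or 4 (adjusted p 0.0572 to 0.116).

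**Figure D4:**
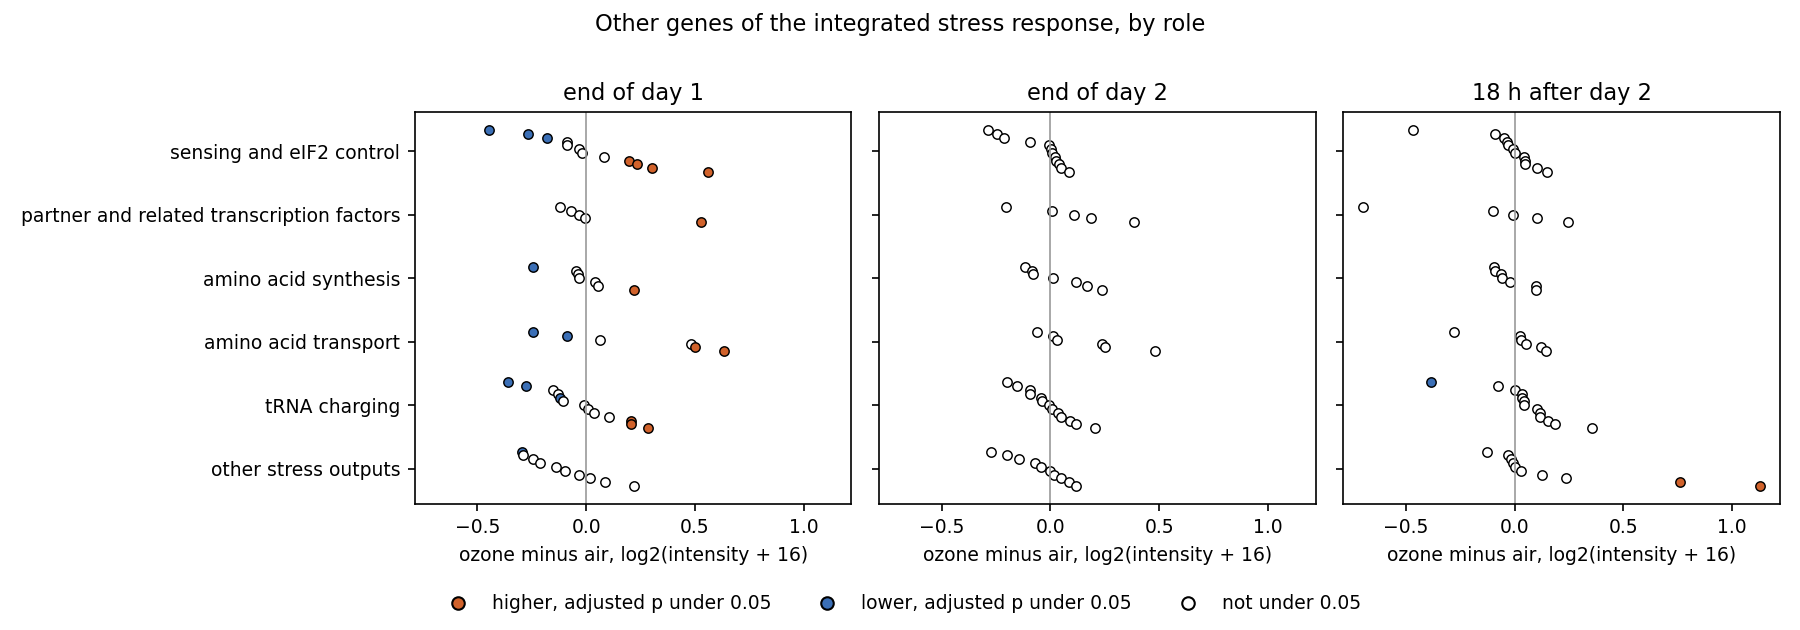
Ozone minus air in log2(intensity + 16) for the 53 other tested genes of the response, by role and harvest time. Each point is a gene; orange and blue mark genes higher and lower with adjusted p under 0.05 (11 and 10 on day 1, 0 and 0 on day 2, 2 and 1 at 18 h).

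By the end of day 2, 0 of 53 genes passed, against 0.753% of all genes, with a median of 0.01. At 18 h, 2 were higher and 1 lower, 5.66% against 1.37% of all genes. Gdf15, a secreted stress hormone, read 210, 176, 243, 210 and 270 after air and 213, 1449, 927, 376 and 277 after ozone. Fgf21, a liver hormone of fasting and stress, read 195, 198, 204, 197 and 149 after air and 206, 542, 417, 373 and 219 after ozone. The highest ozone arrays were replicates 2 and 3 for both, the same replicates that were highest for Atf3 and Ddit3 at that time, while replicates 1 and 5 lay near the air arrays. The log2 differences were 1.13 ± 0.30 for Gdf15 (limma, adjusted p = 0.0492) and 0.76 ± 0.19 for Fgf21 (adjusted p = 0.0373). Without ozone replicate 2 they were 0.75 and 0.59. The call of Gdf15 was lost without any of 27 of the 32 arrays in turn (adjusted p up to 0.172), and that of Fgf21 without air replicate 2, 3, 4 or 5 or ozone replicate 2, 3 or 4 (adjusted p up to 0.123). Eprs1, the synthetase that charges glutamate and proline tRNAs, fell by 0.38 ± 0.07 at 18 h (adjusted p = 0.00571; 0.0735 in a fit of only the groups compared) with no overlap between the groups, and was among the higher genes on day 1.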

How the data were processed

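The authors deposited linear probe-set intensity values of single-colour Affymetrix arrays. Per the submitters' processing notes, PLIER and Affymetrix Expression Console were used. Their versions, the background correction and the scaling are not given in the sources at hand. Groups and replicate numbers came from sample titles. Of 31139 probe sets, 97 controls, 11407 without an annotated gene and 573 with several genes were left out. Probe sets below the 25th percentile of mean log2(intensity + 16) over the remaining 19062 were removed, and the brightest per gene was kept. Differences were tested with limma 3.58.1 in R 4.3.3 (lmFit, eBayes with an intensity trend) on 6 group means without a block, two-sided, with Benjamini-Hochberg adjustment over 10886 genes. Errors of differences are standard errors. The procedure was tested on simulated data. Replicate numbers were not treated as pairs. Correlations were computed in R, and their permutation tests in numpy 2.4.6. For those tests scipy 1.17.1 gave the ranks and the adjusted p-values. No array was left out, none was identical to another, and detection calls and scan dates were not used. The 8 genes, the lists and the arrays left out in some alternatives were chosen with earlier results of these data known. Other genes are named as the 3 largest rises and falls past the threshold per ozone and air comparison and the 2 most similar genes per member; Eif2ak3, Gpt2, Cth and the arrays highest for Atf3 were singled out after their values were seen.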

Additional observations from a re-analysis of the deposited data

Results flagged for a closer look

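Within groups, 6 of 48 gene and group combinations held an array set apart from the rest by a gap large for the range of its group. The rule was Dixon's test on log2(intensity + 16), and chance gives about 1 in 20 groups. Atf4 was low on day 1 air replicate 6 (1259 units), the array on which Atf3 was high (867). Atf3 was also high on 18 h air replicate 2 (371). Its highest value, 2502 on 18 h ozone replicate 2, did not meet the rule on the log2 scale. Trib3 was low on day 2 air replicate 2 (270, rounded), Ppp1r15a was high on day 1 ozone replicate 2 (251), and Sesn2 was lowest in the narrow 18 h ozone group on replicate 2 (296). The ozone effect on Ddit3 differed between 18 h and day 1 by 0.47 on the log2 scale (limma's test of the difference, adjusted p = 0.0112). Of all genes tested, 22.1% passed that test.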

How the results depend on the processing

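Of 1080 alternative fits of the 24 ozone and air differences of the 8 genes, 1056 kept direction and side of the threshold, 9 gained a call and 15 turned in sign, none of them called before. The count of 8 past the threshold on day 1 was 1 with a gene's probe sets averaged (Trib3) and 0 to 1 leaving out single arrays; on day 2 it was 1 (Sesn2) without 3 or 4 arrays that resembled other groups. The change of effect from day 1 to day 2 gave 0 to 1 without single arrays. Ozone day 2 against day 1 gave 2 with the 50th-percentile filter, quantile normalization or those 3 or 4 arrays left out, and 1 to 3 without single arrays. Same-numbered arrays deviated from their groups with r between -0.588 and 0.262, over 0.1 in 2 of 16 pairs. Such correlations cannot show whether the numbers pair samples or mark a shared batch. Ozone 18 h against day 2 gave 1 with the replicate block (the call of Sesn2 was lost, adjusted p = 0.0535), 1 with only the groups compared, and 0 to 3 without single arrays. Of the 53 other genes, day 2 gave 1 (50th percentile), 11 (without 3 or 4 arrays) and 0 to 6 (single arrays); 18 h gave 5 (50th percentile, quantile, without 3 arrays), 1 (median centring), 1 (replicate block), 0 (only the groups compared), 10 (without 4 arrays) and 1 to 10 (single arrays). The cause was not tested. Signs turned for Atf4 on day 1 (-0.0004 with median centring, -0.043 to 0.057 without single arrays), Psat1 on day 1 (-0.0052 to 0.055), Sesn2 on day 2 (-0.002, dimmer probe set), Ppp1r15a at 18 h (-0.026 without 4 arrays, -0.13 to 0.10 without single arrays) and Trib3 at 18 h (-0.031 with probe sets averaged, -0.0091 without 4 arrays, -0.054 and -0.072 with the dimmer probe sets, -0.029 to 0.080 without single arrays). Over all genes, day 2 calls moved from 82 to 22 without a filter, 161 with the 50th-percentile filter, 145 with quantile normalization, 6 with the replicate block, 1 with only the groups compared and 1552 or 1591 without 3 or 4 arrays; 18 h calls moved from 149 to 75 with median centring, 97 with the replicate block, 1 with only the groups compared, and 245 or 581 without 3 or 4 arrays. Without single arrays the calls ranged from 1 to 1003 on day 2 and from 35 to 435 at 18 h. Without 3 or 4 arrays, the change of effect from day 1 to day 2 moved from 603 to 283 or 330 calls, that from day 2 to 18 h from 1 to 1016 or 1160, ozone 18 h against day 2 from 1331 to 2297 or 2318, and air 18 h against day 2 from 14 to 356 or 312. The low signal of Psat1 and Asns over nonspecific binding limits what can be seen of them. No filter, offsets of 1 and 64, eBayes without trend and robust eBayes moved none of these counts of the 8 or the 53 genes by more than 1.5 times.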
